A study of Mus musculus with 4 samples.

Results

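The interleukin 1 family comprises cytokines that start inflammation, the receptors that read them and the proteins that block them, and 10 of its genes were followed here: the ligand genes Il1a, Il1b and Il18, the antagonist genes Il1rn and Il18bp, the receptor genes Il1r1, Il1r2 and Il1rap, and the inhibitor genes Sigirr and Tollip. They were chosen by gene symbol, and each matched 1 of the 55536 annotated genes in the tables. RNA came from bone-marrow-derived macrophages of C57BL/6J mice, which are macrophages grown in culture from marrow precursors. All 4 libraries belonged to 1 group and were labelled as biological replicates 1 to 4. Their cells had been exposed to lipid A, the part of bacterial endotoxin that Toll-like receptor 4 senses, at 100 ng/ml for 12 h. The agent was then washed out for 12 h, and a planned second exposure at the same dose had lasted 0 minutes. Another label field names the agent as lipoprotein A and gives 12 h. All 4 libraries carry the same donor record, and sex and age were not collected. Libraries of untreated cells were not analysed here, so no value below is a response to lipid A.

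The gene counts totalled 25594340 in replicate 1, 27384162 in replicate 2, 48875472 in replicate 3 and 57126810 in replicate 4. A count of 0 allows up to 3 counts, or 0.0525 to 0.117 CPM (counts scaled to the library total), and these limits cover counting error only. All 9 macrophage markers looked up had a mean of at least 10 TPM, a relative level scaled to transcript length and to the library total. Their TPM summed to between 15557 and 18191 in a library. The fibroblast, mast cell and basophil, dendritic cell, T and NK cell and B cell lists each summed to at most 1.24 TPM in any library. The endothelial list summed to 3.5 to 7.38 TPM, from Pecam1 and Cdh5, with Tek at 0.01 TPM or less. The neutrophil list did vary and is given beside Il1rn.

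Interleukin 1 alpha, encoded by Il1a, and interleukin 1 beta, encoded by Il1b, bind the same receptor, a complex of the chain from Il1r1 with the accessory chain from Il1rap. Interleukin 1 beta and interleukin 18 are made as inactive precursors that caspase 1 cuts inside inflammasomes, so that their RNA levels do not give the amount of active cytokine. The receptor antagonist from Il1rn occupies the receptor without signalling, the decoy receptor from Il1r2 binds ligand without signalling, and the binding protein from Il18bp captures interleukin 18. In macrophages Il1b is a textbook target of Toll-like receptor signalling through NF-kB.

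The Il1rn gene makes a secreted and an intracellular antagonist from separate starts, and the sequences below show where their messages part. Il1rn lies on chromosome 2 (chr2:24336853-24351494, plus strand, mm10, GENCODE M21). Il1rn-201, the secreted form of 178 codons, begins at 24345310 and has its first coding base at 24345453. Il1rn-204, the intracellular form of 159 codons, begins at the upstream first exon at 24336853 and has its first coding base there at 24336983. Il1rn-202 begins at 24345288 and encodes 162 codons. Il1rn-204 and Il1rn-202 join an exon that begins at 24345520. Il1rn-201 runs unbroken through that base, in a longer exon with the same end. The lines give the messages from the start codon to base 24345571, the end of that exon, 5′ to 3′, with the coding bases particular to each transcript in capitals (67, 10 and 19 bases) and the 52 bases they share in lower case.
Il1rn-201: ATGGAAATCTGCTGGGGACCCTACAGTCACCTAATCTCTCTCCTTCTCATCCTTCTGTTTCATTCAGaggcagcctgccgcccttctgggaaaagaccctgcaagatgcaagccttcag
Il1rn-204: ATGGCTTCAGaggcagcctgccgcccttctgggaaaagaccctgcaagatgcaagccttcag
Il1rn-202: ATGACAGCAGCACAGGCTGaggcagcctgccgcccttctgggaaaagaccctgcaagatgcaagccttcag

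The bases just before the start sites are printed for 4 windows, those of the agonist genes Il1a and Il1b and of an upstream and a downstream start of their antagonist Il1rn, since all were transcribed in these libraries. RefSeq, in build GRCm38.p6, gave promoter windows for 9 of the 10 genes; Sigirr was the gene without one. Each line holds the 250 bases before the annotated start on the strand of the gene, and capitals mark motif matches on either strand. The motifs searched were the TATA box, spelled TATAAA, the PU.1 core, spelled GAGGAA, a C/EBP motif, spelled TTNNGNAA, an interferon response element, spelled GAAANNGAA, and the NF-kB consensus. In these spellings N is any base. Il1a and Il1b lie on the minus strand of chromosome 2.
Il1a (chr2:129309973-129310222, minus strand): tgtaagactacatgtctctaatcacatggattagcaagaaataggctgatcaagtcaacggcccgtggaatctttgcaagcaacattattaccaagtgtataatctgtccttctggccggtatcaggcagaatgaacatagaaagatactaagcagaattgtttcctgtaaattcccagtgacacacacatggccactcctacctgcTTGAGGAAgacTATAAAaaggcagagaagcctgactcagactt
Il1b (chr2:129371140-129371389, minus strand): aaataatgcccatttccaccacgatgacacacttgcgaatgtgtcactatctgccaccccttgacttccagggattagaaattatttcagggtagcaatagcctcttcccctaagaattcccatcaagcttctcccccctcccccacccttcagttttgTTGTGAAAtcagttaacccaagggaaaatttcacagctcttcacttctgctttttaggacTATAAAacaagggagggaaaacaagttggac
Il1rn upstream start (chr2:24336610-24336859, plus strand): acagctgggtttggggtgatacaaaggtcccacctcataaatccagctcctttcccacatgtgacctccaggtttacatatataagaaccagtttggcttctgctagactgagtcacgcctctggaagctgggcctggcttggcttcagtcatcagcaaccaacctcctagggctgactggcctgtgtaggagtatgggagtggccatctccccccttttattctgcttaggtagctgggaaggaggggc
Il1rn downstream start (chr2:24345041-24345290, plus strand): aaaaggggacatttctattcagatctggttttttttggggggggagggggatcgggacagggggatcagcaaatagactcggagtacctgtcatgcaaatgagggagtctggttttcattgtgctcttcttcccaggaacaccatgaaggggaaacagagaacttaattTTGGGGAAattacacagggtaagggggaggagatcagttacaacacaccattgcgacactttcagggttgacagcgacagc

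The Il1a and Il1b windows shared a TATA box at nearly the same place, 32 to 27 bases before the start in Il1a and 31 to 26 bases before it in Il1b. Of 32851 promoter windows of this length, 12.4% held TATAAA anywhere in the window on either strand. The share with it at this place on the strand of the gene was not computed. Il1a had a C/EBP match at 43 to 36 bases, which overlaps a PU.1 core at 41 to 36 bases, and Il1b had a C/EBP match at 91 to 84 bases. The downstream Il1rn window printed held a C/EBP match at 81 to 74 bases, while the upstream window held none of the 5 motifs. RefSeq lists another downstream start, and its 250 bases (chr2:24345121-24345370), which overlap the printed ones and are not shown, held C/EBP matches at 161 to 154, 65 to 58 and 64 to 57 bases. C/EBP matches occurred in 36.8% of windows, PU.1 cores in 23.3%, interferon response elements in 7.13% and the NF-kB consensus in 7.25%. A match is a run of letters and was not tested as a binding site, and a window without a match says nothing about a factor.

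The antagonist messages stood at the top of the 10 genes, the ligand messages followed, and the receptor messages and Sigirr stood at the bottom. Of the 10 genes, 7 reached 1 TPM in all 4 libraries, against 18.9% of all annotated genes. The median of the 10 mean levels was 48.2 TPM, beside 18.1 TPM for the 10476 genes that reached 1 TPM in all 4 libraries. The order by mean was Il18bp, Il1rn, Il18, Il1a, Il1b, Tollip, Il1rap, Il1r2, Sigirr and Il1r1. The ranges over libraries did not overlap between Il1rn and Il18, between Tollip and Il1rap, or between Il1rap and Il1r2, and every other pair of neighbours overlapped.

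**Figure D1:**
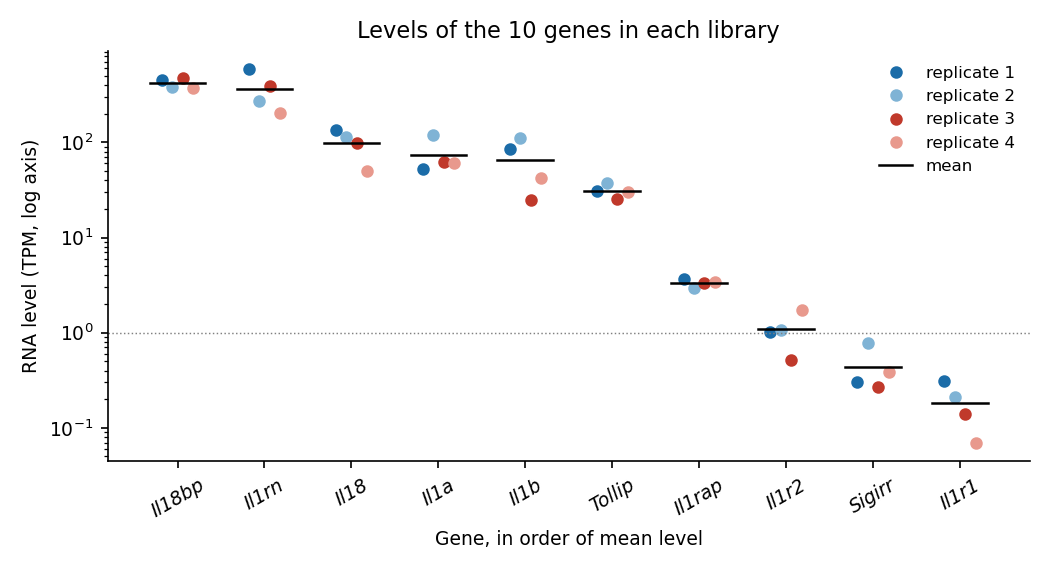
RNA level of each gene (TPM, log axis) in each of the 4 libraries (points) with the mean (black lines); the dotted line marks 1 TPM. Il18bp and Il1rn lie highest, at 202 to 585 TPM, and Il1r1 lies lowest, at 0.07 to 0.31 TPM.

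Il1b (chr2:129364570-129371139, minus strand) encodes the precursor of interleukin 1 beta. It had 85.7, 110.1, 24.6 and 41.8 TPM in replicates 1 to 4, from 1609, 2217, 926 and 1830 counts, with a mean of 65.6 ± 39.3 TPM (SD, n = 4). Replicates 1 and 2 were both higher than replicates 3 and 4. Il1a (chr2:129299610-129309972, minus strand), whose product can signal as a precursor and from dying cells, had 52.1, 120.8, 61.8 and 60.3 TPM, with a mean of 73.8 ± 31.6 TPM (SD, n = 4). Replicate 2 alone was high for Il1a, and the other 3 libraries lay within 52.1 to 61.8 TPM. The higher of the pair was not the same in every library, since Il1b exceeded Il1a in replicate 1 and lay below it in the other 3.

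Il18 (chr9:50554827-50581840, plus strand) encodes a cytokine that drives interferon gamma production by T and NK cells. Its level was 135, 113, 97.5 and 49.96 TPM in replicates 1 to 4, a mean of 99.0 ± 36.1 TPM (SD, n = 4). Replicate 4 was the lowest library, and the level spanned 2.70-fold. On the minus strand of chromosome 7, Il18bp (chr7:102014885-102018690) had the highest mean of the 10 genes and was among the steadiest. It had 452, 386, 475 and 375 TPM, a mean of 422 ± 49.2 TPM (SD, n = 4), and its highest library was 1.27 times its lowest. Il1rn lay above Il18bp in replicate 1, at 585 TPM. A second quantification in the deposited files, in the column layout of kallisto, gave Il18bp 341, 290, 473 and 381 TPM, a wider spread. Exons of Il18bp share 80 bases with exons of Numa1 on the opposite strand, which is 2.64% of its exon bases.

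Il1rn had 585, 272, 396 and 202 TPM in replicates 1 to 4, a mean of 364 ± 168 TPM (SD, n = 4). Replicates 1 and 3 were the high libraries and replicates 2 and 4 the low ones, a different split from that of Il1b. The 10 genes of the neutrophil list summed to 96.1, 20.6, 88.6 and 13.4 TPM, high in the same libraries as Il1rn, but its genes did not all move so. Of these genes, 4 had a mean of at least 1 TPM. S100a8, a calprotectin subunit of neutrophils and monocytes, had 34.8, 4.67, 20.7 and 2.31 TPM, and S100a9, its partner, had 48.2, 8.36, 47.6 and 3.76 TPM. Ngp, a granule protein of neutrophil precursors, had 5.15, 0.28, 9.44 and 0.59 TPM. Mmp8, the neutrophil collagenase and the last of the 4, had 6.55, 6.64, 10.1 and 6.45 TPM, and Camp, a granule peptide gene, had 0.47, 0.65, 0.35 and 0.15 TPM. Replicate 2 was thus not low for Mmp8 and was the highest for Camp, on 4, 6, 6 and 3 counts. Replicate 2 was the lowest for the scarce Mpo, Elane and Cxcr2, each on at most 13 counts. Mpo had 0.35, 0, 0.35 and 0.12 TPM, Elane 0.48, 0, 0.04 and 0.03 TPM, and Cxcr2 0.09, 0, 0.05 and 0.02 TPM. The neutrophil markers Ly6g and Retnlg were listed at 0 TPM in all 4 libraries. The part of neutrophils or their precursors in the Il1rn level was not tested. In bulk RNA, fewer cells of a type and less RNA per cell cannot be told apart.

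Receptor messages were scarce. Il1r1 (chr1:40225080-40317257, plus strand), the signalling receptor chain, had 0.31, 0.21, 0.14 and 0.07 TPM, from 24, 18, 24 and 16 counts. Its level is therefore set by few counts, though each library lay above the 3 counts that a 0 allows. Il1r2 (chr1:40074079-40125231, plus strand), the decoy receptor, had 1.02, 1.07, 0.52 and 1.74 TPM from 12, 23, 21 and 80 counts. In replicate 1, 0.46 of the 1.02 TPM came from 1 count on Il1r2-203, a transcript of 366 bases. Scaled to the library total alone, Il1r2 had 0.469, 0.840, 0.430 and 1.40 CPM. Replicate 4 held the most decoy message. Il1rap (chr16:26581704-26730117, plus strand), the accessory chain that the interleukin 1, 33 and 36 receptors share, had 3.66, 2.93, 3.36 and 3.44 TPM, a mean of 3.35 ± 0.306 TPM (SD, n = 4). In these values it was the steadiest of the 10 genes by the ratio of the highest to the lowest library, 1.25. The kallisto-layout values of Il1rap spread more widely, at 2.52, 2.05, 3.29 and 3.396 TPM. By the same ratio Tollip, at 22.9 to 29.8 TPM in that layout, was steadier there. The place of Il1rap as the steadiest thus depends on the quantification.

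Tollip (chr7:141874813-141918507, minus strand), an adaptor that restrains signalling by interleukin 1 and Toll-like receptors, had 30.8, 37.2, 25.4 and 30.03 TPM, a mean of 30.8 ± 4.85 TPM (SD, n = 4). Sigirr (chr7:141091175-141100572, minus strand), a membrane inhibitor of the same receptors, had 0.30, 0.78, 0.27 and 0.39 TPM from 3, 21, 11 and 24 counts. In replicate 1 it was at the limit that a count of 0 allows. The kallisto-layout values of Sigirr were 0.173, 2.45, 0.776 and 1.34 TPM, and its mean of 1.18 TPM then lay above that of Il1r2, 1.10 TPM. The place of Sigirr in the order thus depends on the quantification.

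Within each library, the antagonist message was compared with the agonist messages it opposes. Il1rn exceeded the sum of Il1a and Il1b in every library, by 4.24, 1.18, 4.58 and 1.98 times in replicates 1 to 4. The excess was slight in replicate 2, where the agonist messages summed to 231 TPM and Il1rn had 272 TPM. The kallisto-layout values gave 4.36, 1.18, 4.50 and 1.99 times. Il18bp exceeded Il18 in every library too, by 3.35, 3.402, 4.87 and 7.497 times. These are ratios of RNA and not of protein.

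**Figure D2:**
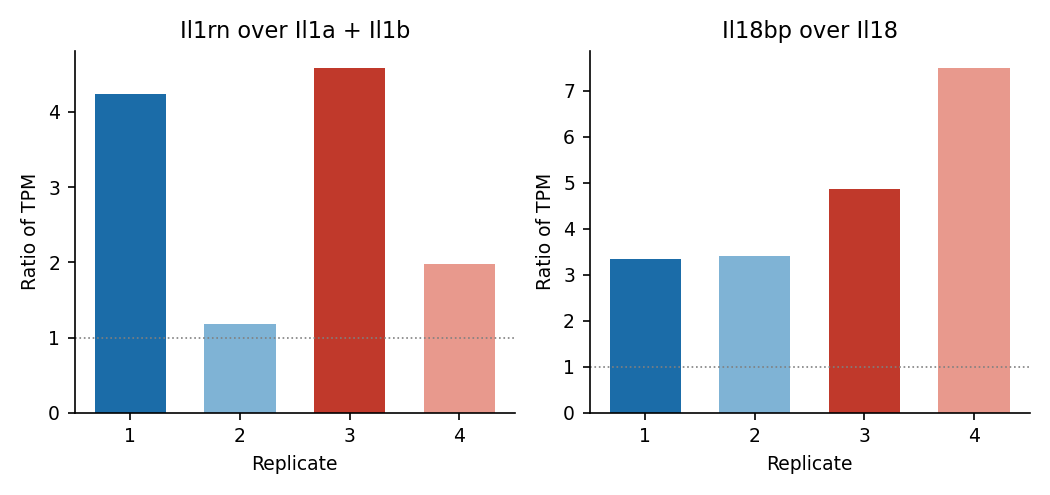
Ratio of TPM (linear axes from 0) in each library for Il1rn over the sum of Il1a and Il1b (left) and for Il18bp over Il18 (right); the dotted line marks equal levels. Every bar lies above 1, with the lowest at 1.18 in replicate 2 on the left and the highest at 7.497 in replicate 4 on the right.

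For 9 pairs of genes, log2((TPM a + 1)/(TPM b + 1)) was tested over the 4 libraries with a two-sided exact sign-flip permutation test, whose smallest possible p is 0.13 (2 of 16 sign assignments), so that no pair could pass 0.05. The log2 ratio of Il1a over Il1rn was -3.46, -1.17, -2.66 and -1.73, a mean of -2.26 ± 1.01 (SD, n = 4; exact permutation p = 0.13, 0.161 after Benjamini-Hochberg adjustment over the 9 pairs). Il1a therefore lay below Il1rn in 4 of 4 libraries, as did Il1b, whose log2 ratio to Il1rn had a mean of -2.57 ± 1.11 (exact permutation p = 0.13, adjusted 0.161). Il18 over Il18bp had a mean of -2.16 ± 0.54 and was negative in 4 of 4 libraries (exact permutation p = 0.13, adjusted 0.161). For Il1a over Il1b the log2 ratios were -0.71, 0.13, 1.30 and 0.52, a mean of 0.31 ± 0.83 (exact permutation p = 0.625, adjusted 0.625). That ratio was positive in 3 of 4 libraries, and its mean was smaller than its SD. Because the test could not pass 0.05, it does not decide whether the levels of these agonist messages differ.

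Il18 lay above Il1b in 4 of 4 libraries, by a mean log2 ratio of 0.72 ± 0.85, which was close to 0 in replicate 2, at 0.04, and fell to 0.31 without replicate 3 (exact permutation p = 0.13, adjusted 0.161). Among the receptors, Il1r1 lay below Il1r2 by a mean log2 ratio of -0.79 ± 0.40 and below Il1rap by -1.88 ± 0.15, in 4 of 4 libraries each (exact permutation p = 0.13, adjusted 0.161 for both). The pseudocount of 1 TPM is larger than the levels of Il1r1 and Sigirr, so ratios with them depend on it: with 0.1 TPM, Il1r1 over Il1r2 was -2.04 and Il1r1 over Il1rap -3.68. Between the inhibitors, Tollip exceeded Sigirr by a mean log2 ratio of 4.47 ± 0.10 in 4 of 4 libraries (exact permutation p = 0.13, adjusted 0.161). That ratio was 5.93 with a pseudocount of 0.1 TPM and 3.75 in the kallisto-layout values. Sigirr over Il1r1 had a mean log2 ratio of 0.27 ± 0.25, positive in 3 of 4 libraries (exact permutation p = 0.25, adjusted 0.281). It was 0.91 with a pseudocount of 0.1 TPM and 0.78 in the kallisto-layout values.

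Most Il1rn message was of the secreted form. Il1rn-201 had 435, 198, 279 and 149 TPM in replicates 1 to 4, a share of 72.9 ± 1.66% (SD, n = 4) of the gene's TPM. That share stayed within 70.6 to 74.3% although the gene's level ranged 2.89-fold. The intracellular form Il1rn-204 had 103, 41.1, 95.0 and 36.5 TPM, and Il1rn-202 had 38.3, 28.0, 20.0 and 15.5 TPM. Transcripts from the upstream start made up 17.8, 15.4, 24.1 and 18.3% of the gene, a mean of 18.9 ± 3.70% (SD, n = 4), with replicate 3 the highest. The kallisto-layout table gave the upstream start 12.2, 11.5, 20.2 and 13.5%, a mean of 14.3 ± 3.98% (SD, n = 4). Replicate 3 was the highest in both tables. Besides the coding starts printed above, the annotated 3′ ends differ, at 24350936 for Il1rn-201, 24351494 for Il1rn-204 and 24349807 for Il1rn-202, so the estimated split rests on both ends of the messages.

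**Figure D3:**
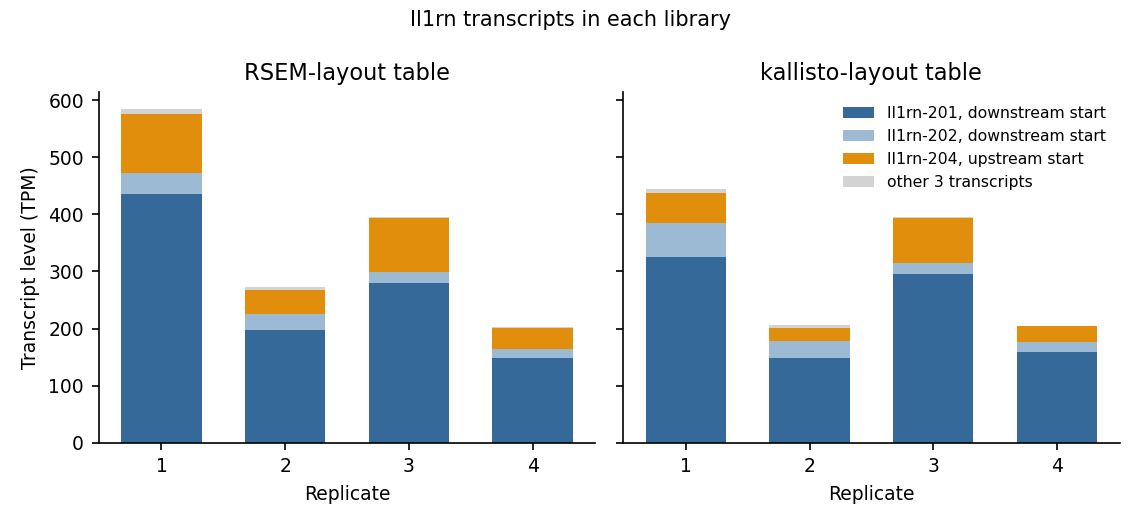
Level of each Il1rn transcript (TPM, stacked, linear axes from 0) in each library, in the RSEM-layout table (left) and the kallisto-layout table (right). Il1rn-201, from the downstream start, fills most of every bar, and Il1rn-204, from the upstream start, has 36.5 to 103 TPM on the left.

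The transcripts of Il18 were less evenly split over the libraries. Il18-204, which encodes the full precursor of 192 codons, was the main one in every library, with 84.3, 62.2, 87.2 and 42.7 TPM. Il18-202, with the same 192 codons and a later start, had 25.5, 30.5, 0.03 and 0 TPM, so it was present in replicates 1 and 2 and at or near 0 in replicates 3 and 4. The kallisto-layout table gave Il18-202 14.4, 15.2, 0 and 0 TPM, with the same split. Every exon of Il18-202 lies inside an exon of Il18-204, so a read of the former can also come from the latter. Another transcript, Il18-203, with an annotated reading frame of 78 codons, had 25.2, 20.7, 10.3 and 7.29 TPM.

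**Figure D4:**
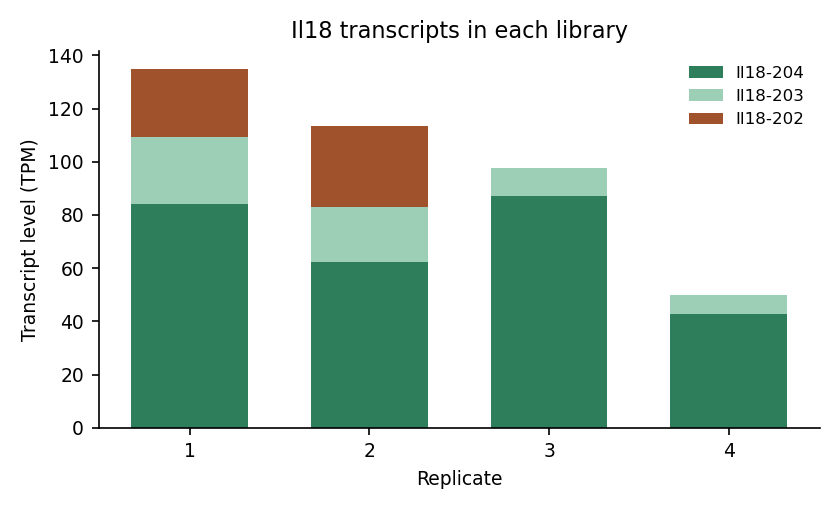
Level of the Il18 transcripts with a mean of at least 1 TPM (stacked, linear axis from 0) in each library. Il18-204 is the main transcript throughout, and Il18-202 has 25.5 and 30.5 TPM in replicates 1 and 2 but 0.03 and 0 TPM in replicates 3 and 4.

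Il18bp came mainly from Il18bp-201 and Il18bp-203, which both encode 193 codons. Il18bp-201 had 281, 248, 350 and 241 TPM, a share of 66.1 ± 5.13% (SD, n = 4), and the kallisto-layout table gave it 79.2 ± 2.02%. Il1rap, whose gene makes a membrane chain that signals and a shorter soluble chain that does not, was mostly of the longer kind. Il1rap-201, with 570 codons, made up 83.3 ± 2.78% and Il1rap-206, with 360 codons, 13.7 ± 3.27% (SD, n = 4 each). Il1b-201 and Tollip-201 made up 99.2% and 96.8% of their genes, and Il1a has 1 annotated transcript. Shares of Il1r1, Il1r2 and Sigirr transcripts rested on so few counts that they are not described further.

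The other genes of the pathway were taken from a list chosen by function. All 10 genes of processing and release averaged 1 TPM or more, and their median was 116 TPM. The leading ones were Casp1, the protease that cuts the precursors, at 347 ± 89.7 TPM, Ninj1, which ruptures the membrane of dying cells, at 299 ± 60.1 TPM, and Casp4, a sensor of endotoxin inside the cell, at 151 ± 40.1 TPM (SD, n = 4 each). Of 13 signalling genes, all had a mean of at least 1 TPM, with a median of 25.0 TPM. Myd88, the adaptor of interleukin 1 and Toll-like receptors, led them at 122 ± 22.6 TPM, followed by Tab2, an adaptor of the kinase TAK1, at 79.3 ± 23.1 TPM and the kinase gene Irak2 at 63.8 ± 11.9 TPM (SD, n = 4 each). The machinery downstream of the receptor thus stood far above Il1r1, which had 0.31 TPM at most.

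Of 8 inhibitors of the pathway, all had a mean of at least 1 TPM, with a median of 44.4 TPM. Nfkbia, which holds NF-kB in the cytoplasm, had 194 ± 120 TPM, Zfp36, which speeds decay of cytokine messages, 94.9 ± 11.8 TPM, and Tnfaip3, a ubiquitin editor that stops NF-kB signalling, 59.4 ± 23.1 TPM (SD, n = 4 each). Among 12 other family ligands and receptors with a row, only Il1rl2, the interleukin 36 receptor, had a mean of at least 1 TPM, at 1.90 ± 0.636 TPM (SD, n = 4). Il1f5, Il1f8, Il1f10 and Il1rapl2 were listed at 0 TPM in all 4 libraries. Il18rap, a chain of the interleukin 18 receptor, had 0.105 ± 0.0191 TPM, and Il1f9, an interleukin 36 ligand, had 0.148 ± 0.150 TPM (SD, n = 4 each).

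The deposited notes list 6 read files for each of replicates 1 and 2 and 4 for each of replicates 3 and 4, and these pairs of libraries were compared. It is a comparison of libraries, not of conditions, and what the number of read files reflects is not known. The p-values measure only the spread between these libraries. Il1b was lower in replicates 3 and 4: it had 62.9 and 81.0 CPM in replicates 1 and 2 and 19.0 and 32.03 CPM in replicates 3 and 4. Those values did not overlap, and the log2 fold change was -1.55 (SE 0.26; edgeR quasi-likelihood test, Benjamini-Hochberg adjusted p = 0.0389 over 11991 genes). Il1b was the only one of the 9 members tested that passed, with 1 lower and 0 higher. By an unadjusted p under 0.05 the counts were also 1 and 0, beside 15.3% lower and 13.2% higher of all genes. By the DESeq2 Wald test they were the same, beside 9.24% and 6.95% of 11526 genes with an adjusted p. Of all genes tested, 5.80% passed the edgeR threshold in either direction and 3.72% were lower. The 696 genes that passed were 446 lower and 250 higher, and offsets for GC content and length turned that split to 270 lower and 284 higher. The call on Il1b was lost without replicate 1 (log2 fold change -1.58, adjusted p = 0.0588), without replicate 3 (-1.22, 0.201), without replicate 4 (-1.96, 0.222) and with offsets for GC content and length (-1.45, 0.0522).

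The other members tested did not pass. Il18 had 52.2 and 43.3 CPM in replicates 1 and 2 and 41.6 and 21.2 CPM in replicates 3 and 4, with a log2 fold change of -0.68 (SE 0.36, edgeR adjusted p = 0.271). That of Il18 was -0.37 without replicate 1, -1.25 without replicate 3 and -0.26 without replicate 4. Il1r1 had a log2 fold change of -1.13 (SE 0.502, edgeR adjusted p = 0.206), on 16 to 24 counts per library. It was -0.69 without replicate 1 and -0.76 without replicate 4, and without replicate 3 Il1r1 had too few counts to be tested. Like Il1b, Il18 and Il1r1 had both CPM values of replicates 3 and 4 below both of replicates 1 and 2, which makes 3 of the 9 members tested. Of all genes tested, 24.5% showed that order. For Il18 it was close, at 41.6 CPM in replicate 3 against 43.3 CPM in replicate 2. The kallisto-layout values of Il18, 110, 91.3, 112 and 56.5 TPM in replicates 1 to 4, did not keep it, with replicate 3 the highest. Il1a had a log2 fold change of -0.45 (SE 0.312, edgeR adjusted p = 0.389) and Il1rn of -0.50 (SE 0.537, edgeR adjusted p = 0.573). Il1rn became higher in replicates 3 and 4 once replicate 1 was left out, at 0.38. Il18bp and Il1rap differed little, with log2 fold changes of -0.01 (SE 0.242) and 0.02 (SE 0.242), and Tollip had -0.28 (SE 0.149). The decoy receptor Il1r2 had 0.44 (SE 0.629), which rested on replicate 4 and was -0.63 without it. The median over the 9 members was -0.45, and that over all genes tested was -0.0143. Sigirr had too few counts to be tested.

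**Figure D5:**
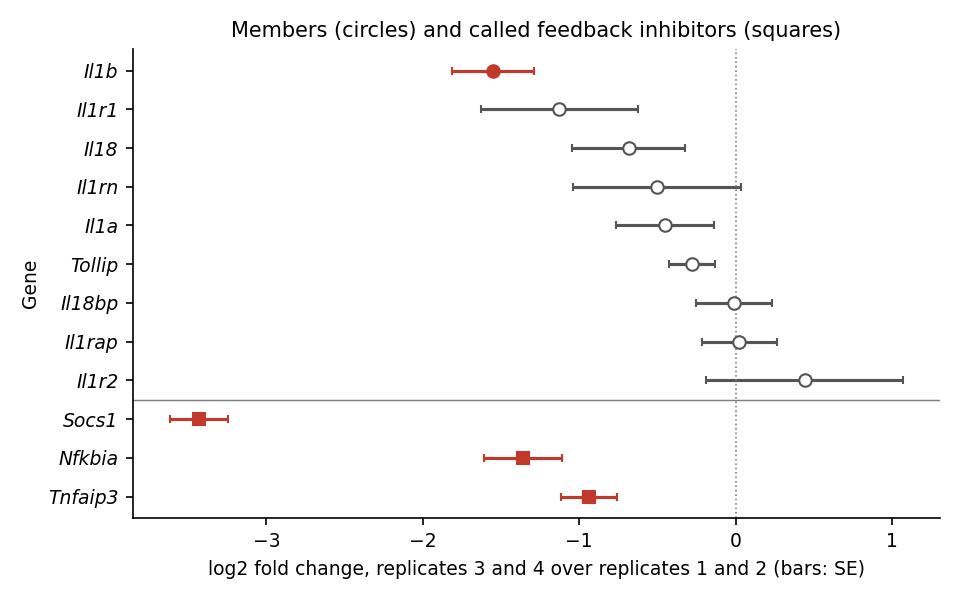
Log2 fold change of replicates 3 and 4 over replicates 1 and 2 with its SE, for the 9 members tested (circles) and the 3 inhibitors called lower (squares); filled red symbols passed the edgeR threshold. Il1b, at -1.55, is the only member that passed, and Socs1 lies farthest from 0, at -3.43.

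Among the inhibitors of the pathway, 3 of 8 were lower in replicates 3 and 4 and 0 were higher by edgeR, beside 3.72% lower and 2.08% higher of all genes tested. By an unadjusted p under 0.05 the counts were 4 lower and 1 higher, beside 15.3% and 13.2% of all genes. The DESeq2 Wald test called 4 lower and 0 higher, beside 9.24% and 6.95% of the 11526 genes to which it gave an adjusted p. Socs1, a suppressor of cytokine signalling, had 23.4 and 30.1 CPM in replicates 1 and 2 and 2.66 and 2.49 CPM in replicates 3 and 4 (log2 fold change -3.43, SE 0.188, edgeR adjusted p = 0.0144). Nfkbia, an NF-kB target as well as its inhibitor, had 177 and 321 against 88.0 and 110.4 CPM (log2 fold change -1.36, SE 0.251, edgeR adjusted p = 0.0437). Tnfaip3 had 145 and 219 against 93.4 and 102 CPM (log2 fold change -0.94, SE 0.18, edgeR adjusted p = 0.0454). In each of them both values of replicates 3 and 4 lay below both of replicates 1 and 2, an order that 24.5% of all genes tested showed. The inhibitors Zc3h12a and Zfp36 had that order too, and Irak3 and Otulin had the reverse. The share of all genes with the reverse order was not computed. Without replicate 3 or replicate 4 no gene at all passed the edgeR threshold. The log2 fold changes in those fits were -3.48 and -3.37 for Socs1 (adjusted p = 0.174 and 0.222), -1.20 and -1.52 for Nfkbia (0.238 and 0.222) and -0.87 and -0.99 for Tnfaip3 (0.255 and 0.243). The call on Tnfaip3 was also lost without replicate 1 (-1.07, adjusted p = 0.0522) or replicate 2 (-0.77, 0.0614), and that on Nfkbia with GC and length offsets (-1.22, 0.0501). With the filtered RSEM-layout counts, none of the 10 genes of processing and release, the 13 of signalling or the 2 of the other family members tested passed the edgeR threshold. By an unadjusted p under 0.05, 3 genes of processing and release were lower and 1 was higher, 1 of signalling was lower and 2 were higher, and of the other family members there were 0. For processing and release these are 3 and 1 of 10 genes and for signalling 1 and 2 of 13, to be read against the 15.3% lower and 13.2% higher of all genes. The DESeq2 Wald test called 2 lower and 1 higher in processing and release, 0 lower and 1 higher in signalling, and 0 of the other family members. With no filter on low counts, edgeR called 2 lower and 1 higher in processing and release and 0 lower and 1 higher in signalling. That fit called 4 lower and 1 higher of the inhibitors, and 1356 lower and 1213 higher of 22006 genes. On the kallisto-layout counts, edgeR called 1 of the other family members higher, beside 445 lower and 215 higher of 13276 genes. The median log2 fold change was -0.58 for the inhibitors, -0.27 for processing and release and -0.065 for signalling.

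The protein-coding genes whose pattern over the 4 libraries was nearest to that of Il1b or Il1rn were found among 6710 genes with a mean of at least 10 TPM. The measure was the root mean square difference of log2(TPM + 1) after centring each gene over the libraries. For Il1b they were Nfkbie, an inhibitor of NF-kB (0.121), Gng11, a G protein subunit (0.122), Marcksl1 (0.146), Zc3h12c (0.149) and Calcrl, a peptide hormone receptor (0.174). Nfkbie had 27.6, 43.9, 9.14 and 14.1 TPM, high in replicates 1 and 2 as Il1b was. For Il1rn they were Cela1, an elastase (0.0313), Ifit3b, an interferon-induced gene (0.0979), Vcam1, an adhesion molecule (0.139), Tarm1, a receptor of myeloid cells (0.147), and Ccr1, a chemokine receptor (0.148). Cela1 had 39.2, 17.2, 25.4 and 13.2 TPM and Ifit3b had 734, 298, 489.6 and 219 TPM, both high in replicates 1 and 3. Only 4 libraries, all of 1 group, stand behind this likeness, which is a description.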

How the data were processed

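PolyA-selected RNA, per the series title, was measured in 4 libraries of 1 group. The assembly was mm10 and the annotation GENCODE M21, per the deposited notes. For each library the authors deposited TPM and expected counts per gene and per transcript, laid out as RSEM writes them, and TPM and estimated counts per transcript, laid out as kallisto writes them. The program names are read from those layouts, since the tools are not named in the labels or headers. TPM are relative levels within a library and the expected counts are not normalized, per the file headers. Effective length, also deposited, was shorter than length by 252.5 to 264.1 bases in the 4 libraries. Use of strand in counting is not given in the sources used here.

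Gene rows were joined to GENCODE M21, and 97 spike-in and 26248 other rows (of 81881) were left out. Levels are RSEM-layout TPM. Expected counts were rounded and compared with edgeR 4.0.16 in R 4.3.3 (TMM, minimum count 10 over all 4 libraries, quasi-likelihood test, adjusted p threshold 0.05), which was tested on simulated data. CPM are gene counts scaled to the library total without TMM factors. The SE was derived from the fold change and the F statistic. Alternatives used DESeq2 1.42.0, other normalization, filters, offsets, pseudocounts or quantification, and leaving out each replicate; the filter by pairs of libraries was chosen after seeing the data. Tables and figures used Python 3.11.15, pandas 2.3.3, numpy 2.4.6 and matplotlib 3.10.9.

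Members, gene lists and pairs were chosen with earlier results of these data known. Named genes were all 10 members, in each pathway list the 3 with the highest mean TPM, those called in the comparison of libraries, and the 5 nearest in pattern to Il1b and Il1rn. Il18rap, the Il1f genes, Il1rapl2, Pycard, Zc3h12a, Irak3, Otulin and the marker genes were named after their values were seen.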

Additional observations from a re-analysis of the deposited data

Results flagged for a closer look

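Il1a had 120.8 TPM in replicate 2, against 52.1 to 61.8 TPM in the other 3 libraries. The gap to the nearest library was 0.859 of the whole range, past the critical value of Dixon's test for 4 samples. All 10 members were looked at in this way, and chance alone flags about 1 in 20 such groups.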

How the results depend on the processing

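Of 54 alternative values of the gene pairs, 53 kept their direction; none could pass the threshold. Il1a over Il1b changed sign without replicate 3, at -0.019, and ranged from there to 0.65 without each replicate in turn. Of 60 alternative member levels, 57 moved by less than 1 SD, and the 3 that moved more were the kallisto-layout means of Il18bp (371 TPM), Il1rap (2.82 TPM) and Sigirr (1.18 TPM). The upstream share of Il1rn was 14.3% in the kallisto-layout table and 17.2 to 20.1% without each replicate in turn. The number of genes called between the pairs of libraries, 696, was 1866 with the DESeq2 Wald test and 2569 with no filter on low counts; without each replicate in turn it ranged from 0 to 671. It was 177 without replicate 1, 671 without replicate 2 and 0 without replicate 3 or 4, where each lone library was assumed to vary like the others. With GC and length offsets, 270 genes were lower and 284 higher, against 446 and 250. Il1b was lower under all 10 alternatives, at -1.96 to -1.22 on the log2 scale, and was called under 6 of them (adjusted p from 6.61e-11 to 0.222); offsets for GC content and length gave -1.45, and leaving out each replicate in turn spanned the same -1.96 to -1.22. Signs of members that were not called changed for Il1a without replicate 2 (0.11), for Il1rn without replicate 1 (0.38), for Il18bp with no filter (0.037), without replicate 1 (0.27) and without replicate 4 (0.15), for Il1r2 without replicate 4 (-0.63), and for Il1rap with GC and length offsets (-0.051) and without replicate 2 (-0.22). Leaving out each replicate in turn gave -0.84 to 0.11 for Il1a, -1.11 to 0.38 for Il1rn, -0.23 to 0.27 for Il18bp, -0.63 to 1.05 for Il1r2 and -0.22 to 0.33 for Il1rap; it gave -1.25 to -0.26 for Il18 and -1.49 to -0.69 for Il1r1. Il18 was called with no filter on low counts (-0.64, adjusted p = 0.0214). The fits without a replicate hold fewer libraries, and the fit with no filter tests 22006 genes in place of 11991; the cause of the other changes was not tested. No paired analysis was possible because the series has 1 group. Depth limits Il1r1, Il1r2 and Sigirr, which had 3 to 80 counts per library.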

Other observations

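Pycard, the adaptor that joins inflammasome sensors to caspase 1, had 89.4, 98.7, 25.1 and 18.7 TPM in replicates 1 to 4, while its counts were 63.7, 68.4, 45.9 and 43.1 CPM. The wide spread in TPM lay in Pycard-202, a transcript of 493 bases, which had 67.0, 75.2, 7.25 and 1.61 TPM from 278, 332, 60 and 15 counts. Pycard-201, of 3800 bases, had 22.4, 23.5, 17.9 and 17.1 TPM. The kallisto-layout table gave Pycard-202 68.7, 74.3, 10.7 and 6.22 TPM. As with Il18-202, the shorter transcript was high in replicates 1 and 2 and low in replicates 3 and 4 in both tables. The cause was not tested.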
